A study of Mus musculus with 6 samples.

Results

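The cytosolic ribosome of a mouse cell is built from a large and a small subunit. The 79 genes described here encode its proteins or are paralogs of genes that do. Their members were taken by symbol (Rpsa, or Rpl, Rps or Rplp followed by a number and a short suffix) from the 11717 genes of the deposited table, and this rule uses no measured value. The set held 46 core genes of the large subunit, 29 core genes of the small subunit and 4 paralogs, Rpl22l1, Rps27l, Rpl7l1 and Rps4l. Some further genes of ribosomal proteins, such as Fau and Rack1, fall outside the symbol rule.

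RNA was sequenced from purified splenic natural killer (NK) cells of C57BL/6 mice. NK cells are lymphocytes of innate immunity that destroy virus-infected and tumour cells. The 3 IL-15Tg-Xbp1s cKO libraries came from mice with an IL-15 transgene and a conditional knockout directed at Xbp1s, and the 3 IL-15Tg-WT libraries from mice with the same transgene and no such knockout. IL-15 is the cytokine on which NK cells depend for survival and growth, and all 6 libraries carry the transgene, so no library shows NK cells without it. Xbp1s is made from Xbp1 mRNA by a splicing step outside the nucleus, and switches on genes that help the endoplasmic reticulum cope with unfolded protein. The labels used here give neither the Cre driver nor the promoter of the transgene, the age, or whether animals were pooled. Separate mice for the 3 libraries of each genotype are not stated, and p-values therefore reflect the spread between libraries, which may be only technical.

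Ribosomal protein genes are transcribed by RNA polymerase II in nearly every cell, and their products are assembled on ribosomal RNA in the nucleolus. Most of their mRNAs begin with a C followed by a run of pyrimidines, the 5' terminal oligopyrimidine (TOP) tract, through which the kinase complex mTORC1 and the RNA-binding protein LARP1 control their translation. In lymphocytes their demand grows with cell size and division, and IL-15 is known to activate mTOR in NK cells.

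The sequences around the annotated starts of 8 genes are shown because the tract is the best-known feature that ribosomal protein mRNAs share, and the symbol rule did not use it. Each window runs from 45 bases before to 15 bases after a RefSeq start (GRCm38.p6, the same build as mm10), read 5' to 3' on the coding strand. Capitals mark an unbroken run of at least 5 pyrimidines from the start onwards. Rps27, Rps6, Rpl38, Rps10, Rpl15 and Rpl28 have such a run, and Rpl10 and Rpl22l1 do not.
Rps27, chr3:90213634-90213693, minus strand: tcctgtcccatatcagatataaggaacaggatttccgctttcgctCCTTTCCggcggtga
Rps6, chr4:86857353-86857412, minus strand: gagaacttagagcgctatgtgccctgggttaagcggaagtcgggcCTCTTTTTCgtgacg
Rpl38, chr11:114668535-114668594, plus strand: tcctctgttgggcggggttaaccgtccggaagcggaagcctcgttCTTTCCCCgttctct
Rps10, chr17:27635230-27635289, minus strand: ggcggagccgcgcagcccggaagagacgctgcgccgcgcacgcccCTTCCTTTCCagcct
Rpl15, chr14:18270972-18271031, minus strand: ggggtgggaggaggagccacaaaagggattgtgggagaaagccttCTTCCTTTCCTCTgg
Rpl28, chr7:4792920-4792979, plus strand: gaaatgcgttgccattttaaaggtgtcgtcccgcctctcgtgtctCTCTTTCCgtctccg
Rpl10, chrX:74270771-74270830, plus strand: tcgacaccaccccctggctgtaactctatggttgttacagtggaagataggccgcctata
Rpl22l1, chr3:28805463-28805522, plus strand: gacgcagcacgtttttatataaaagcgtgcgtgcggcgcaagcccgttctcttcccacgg

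The RefSeq table held a promoter for 59 of the 79 genes, with 70 starts in all, since 9 genes had several. At least 1 start opened with 5 pyrimidines in 16 of these 59 genes (27.1%), against 5.22% of the 8349 genes of the deposited table that had a promoter and 5.28% of all 27025 genes with one. The run also began with C in 13 of the 59 (22.0%), against 2.96% of the 8349. In both Rpl10 and Rpl22l1 the base at the annotated start is a G, so no run was counted. In Rpl22l1 an unbroken run of more than 5 pyrimidines follows directly after this G. The bases shown after the start of Rpl10 hold no run of 5. These starts are annotations and were not measured in NK cells.

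Further motifs were searched on both strands from 250 bases before to 50 bases after a start. CGGAAGT, the core of the sites that ETS factors bind, was found in 21 of 59 genes (35.6%), against 16.8% of the genes of the table and 7.20% of all. AAGATGG, part of the YY1 motif, was found in 10 of 59 (16.9%), against 9.09% and 7.28%. CTTTCC, which can overlap the pyrimidine run, was found in 31 of 59 (52.5%), against 30.2% and 29.3%. TATAAA was found in 7 of 59 (11.9%), against 8.36% and 15.7%. A match is a description of the letters in this window.

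The libraries held between 26297292 and 29366756 reads over the listed genes, and values are given as CPM, the reads of a gene scaled to a library total of 1000000 over those genes. All 79 genes passed the filter of 1 CPM in at least 3 of 6 libraries, as did 11343 genes of the table. The smallest count of any of the 79 in any library was 64 reads, for Rpl24 in WT library 3. As a check of the labels, Xbp1 was at 35.1, 33.4 and 39.7 CPM in cKO libraries 1, 2 and 3, against 42.9, 61.4 and 63.5 CPM in WT libraries 1, 2 and 3. No cKO library reached the lowest WT library (log2 fold change -0.61, limma adjusted p = 1.0), and the value covers spliced and unspliced transcripts together. The lowest value of the 12 NK cell markers in any library was 374 CPM, and their sum was 11645 to 12586 CPM in cKO, against 12340 to 14015 CPM in WT. Of the 12, 1 had a log2 fold change above 0 and 11 below, with a median of -0.095, and 0 passed the adjusted test. In 3 of them every cKO library was under every WT library, beside 1.77% of all genes tested, and in 1 every cKO library was above, beside 2.55%. The activating receptor gene Ncr1 had the smallest p of the list, with 975, 963 and 881 CPM in cKO libraries 1, 2 and 3, against 1264, 1408 and 1242 CPM in WT libraries 1, 2 and 3 (log2 fold change -0.47, limma adjusted p = 1.0), and the part of these markers in the results was not tested. Libraries of different genotypes were at times the most alike: over all genes tested, the chi-square per degree of freedom was 4.78 between the reads of cKO library 2 and WT library 1 and 7.26 between cKO library 1 and WT library 2, while no pair within a genotype was below 16.4.

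The difference in ribosomal protein mRNA between the genotypes was smaller than the spread within each of them. The 79 genes together took 2.90%, 3.23% and 2.60% of the reads in cKO libraries 1, 2 and 3, against 3.08%, 2.87% and 2.64% in WT libraries 1, 2 and 3. The sums averaged 29074 ± 3145 CPM in cKO and 28661 ± 2196 CPM in WT (SD, n = 3 each). The groups overlapped, the highest library being cKO 2 and the lowest cKO 3, so that a single genotype held both extremes. In bulk RNA, fewer cells of a type and less RNA per cell cannot be told apart.

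Of the 79 genes, 63 had a log2 fold change above 0 (cKO over WT) and 16 below, where 55.5% of all genes tested lay above 0. Their median was 0.018 on the log2(CPM + 0.5) scale, which is 1.27%, beside a median of 0.0087 over all genes tested. In limma with Benjamini-Hochberg adjustment over all 11343 genes, 0 of the 79 passed an adjusted p of 0.05, and 0.0% of all genes did. At an unadjusted p under 0.05 the count was again 0 of 79, beside 1.17% of all genes (133), of which 0.846% of all genes lay higher in cKO and 0.326% lower. The smallest unadjusted p of the 79 was 0.17. The edgeR quasi-likelihood test on recovered reads called 0 of the 79 at an adjusted p of 0.05 (0.0% of all genes) and 0 without adjustment (1.28%). DESeq2 called 0 of the 79 (0.0529% of all genes, 6 in number) and 0 without adjustment (1.37%).

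No gene of the 79 had all cKO libraries above all WT libraries, where 2.55% of all genes did, and none had all below, where 1.77% did. In either direction the groups were separate for 4.32% of all genes. For 79 of 79 genes the difference between the group means was smaller than the range among the cKO libraries and smaller than the range among the WT libraries. The 95% confidence interval of the fold change included 0 for 75 of the 75 core genes and lay within -0.5 to 0.5 for 74 of them, a 1.41-fold change in either direction. The distance from the estimate to either end of the interval had a median of 0.23. Changes smaller than this were not resolved for a typical gene in this fit, whose spread includes the variation that libraries of both genotypes share. The intervals are not adjusted for the number of genes, and the adjusted test asks for a larger change.

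**Figure D1:**
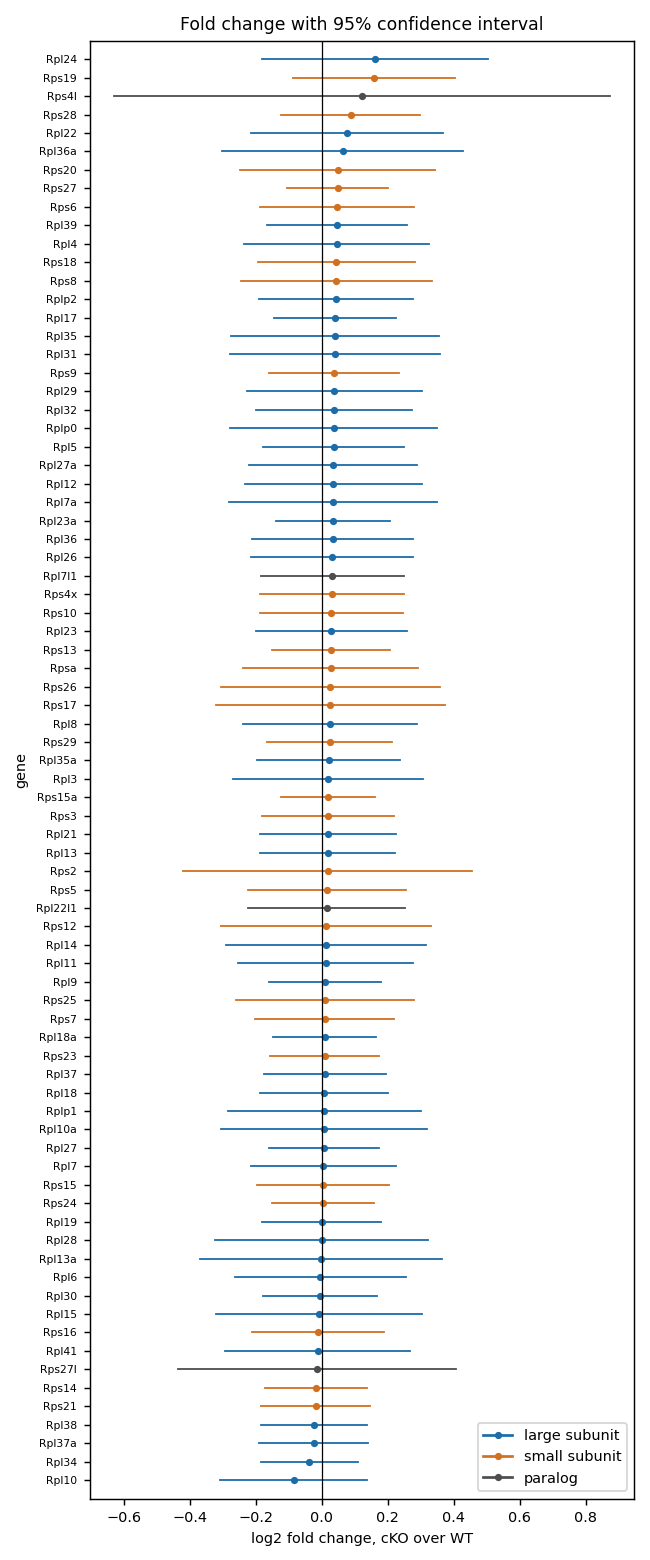
Log2 fold change (cKO over WT, log2(CPM + 0.5) scale) of 78 of the 79 genes, with its 95% confidence interval from limma, sorted from highest to lowest and coloured by class. Every interval crosses 0, the core genes lie between -0.086 (Rpl10) and 0.16 (Rpl24), and the widest interval belongs to the paralog Rps4l.

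The subunits were compared by their medians and their summed levels. The 46 large-subunit genes had a median log2 fold change of 0.018, with 35 above 0 and 11 below. The 29 small-subunit genes had a median of 0.023, with 25 above 0 and 4 below. The ratio of summed large-subunit to summed small-subunit CPM was 1.36, 1.38 and 1.35 in cKO libraries 1, 2 and 3, against 1.39, 1.36 and 1.36 in WT libraries 1, 2 and 3. The ratio averaged 1.37 ± 0.015 in cKO and 1.37 ± 0.013 in WT (SD, n = 3 each), and the groups overlapped.

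In the small subunit, Rps19 had the smallest p of all 79 genes. It encodes a protein needed to mature the ribosomal RNA of the small subunit, and in humans its mutation causes Diamond-Blackfan anaemia. Rps19 (chromosome 7, 24884371 to 24889806, plus strand, mm10) was at 256, 284 and 235 CPM in cKO libraries 1, 2 and 3, against 260.4, 226 and 209 CPM in WT libraries 1, 2 and 3. The cKO libraries were the higher group on average, but WT library 1 lay above cKO libraries 1 and 3. The means were 258 ± 25.0 CPM in cKO and 232 ± 26.4 CPM in WT (SD, n = 3 each). This is a log2 fold change of 0.16 (95% confidence interval -0.088 to 0.40, limma adjusted p = 1.0). The exact permutation test, two-sided, gave p = 0.3 for this gene, where 3 against 3 libraries allow no p below 0.1.

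Rps28, a small protein of the head of the small subunit, was at 225, 256 and 210.5 CPM in cKO libraries 1, 2 and 3, against 232, 217 and 201 CPM in WT libraries 1, 2 and 3. Its log2 fold change was 0.087 (95% confidence interval -0.12 to 0.30), and the groups overlapped. Rps27, a zinc-finger protein, was at 513, 500.4 and 454 CPM in cKO, against 467, 494 and 458 CPM in WT, with a log2 fold change of 0.047 (-0.10 to 0.20). It departed from most genes of the group in that cKO library 1, not cKO library 2, was the highest. Rps6, the substrate of the S6 kinases downstream of mTORC1, was at 319.6, 366 and 292 CPM in cKO and at 339, 317 and 289 CPM in WT, and its groups overlapped.

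Rpsa, which doubles as a laminin-binding protein, was at 887, 1027 and 809.8 CPM in cKO libraries 1, 2 and 3, against 979, 887 and 804 CPM in WT libraries 1, 2 and 3, and the groups overlapped.

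In the large subunit, Rpl24 had the highest fold change and Rpl10 the lowest. Rpl24 (chromosome 16, 55966275 to 55971435, plus strand) encodes a protein at the face that meets the small subunit, and was at 3.00, 3.34 and 2.90 CPM in cKO libraries 1, 2 and 3, against 3.11, 2.59 and 2.43 CPM in WT libraries 1, 2 and 3. WT library 1 lay inside the cKO range, with a log2 fold change of 0.16 (95% confidence interval -0.18 to 0.50, limma adjusted p = 1.0). Its overlap with another gene is given with the levels per length.

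Rpl10 (chromosome X, 74270812 to 74273135, plus strand) encodes a protein that is among the last to join the large subunit and sits near the site where the growing chain is held. It was at 545, 609 and 488 CPM in cKO libraries 1, 2 and 3, against 599, 603 and 537 CPM in WT libraries 1, 2 and 3. Its log2 fold change was -0.086 (95% confidence interval -0.31 to 0.14, limma adjusted p = 1.0). The highest value of all 6 was in cKO library 2 and the lowest in cKO library 3, so the groups overlapped.

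The other large-subunit genes at the lower end were closer to 0. Rpl34 was at 246, 254 and 226 CPM in cKO libraries 1, 2 and 3, against 258, 249.9 and 237 CPM in WT, with a log2 fold change of -0.039. Rpl37a, with -0.025, and Rpl38, with -0.024, had WT values that lay inside the cKO range. Rpl38 is the gene mutated in the Tail-short mouse.

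Rpl22 binds RNA outside the ribosome as well, and in mice its loss blocks the development of alpha-beta T cells. It was at 135, 149.8 and 117 CPM in cKO libraries 1, 2 and 3, against 146, 122 and 114 CPM in WT libraries 1, 2 and 3, with a log2 fold change of 0.076 (-0.22 to 0.37). The stalk genes Rplp0, Rplp1 and Rplp2, whose products recruit elongation factors, had log2 fold changes of 0.036, 0.0070 and 0.043. Rpl5 and Rpl11, whose proteins bind the p53 ligase MDM2 together with the 5S ribosomal RNA, had 0.035 and 0.011. Each of these overlapped between the groups.

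The variation that the 79 genes did show lay between libraries of a genotype. cKO library 2 held the highest value of all 6 libraries in 70 of the 79 genes (88.6%), beside 17.3% of all genes tested, and WT library 1 held it in 7. The lowest value was in cKO library 3 in 53 genes (67.1%), beside 18.0% of all genes, and in WT library 3 in 24. In 66 of the 79 genes (83.5%) the libraries stood in the order 2, 1, 3 from high to low within cKO and 1, 2, 3 within WT, beside 14.4% of all genes tested. This order was noticed in these data, so the counts describe it and do not test it.

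As a median over the 79 genes, the distance from a gene's own mean over 6 libraries was 0.011, 0.17 and -0.14 on the log2 scale in cKO libraries 1, 2 and 3, against 0.094, -0.0099 and -0.13 in WT libraries 1, 2 and 3. Over all genes tested these medians lay between -0.015 and 0.0046. cKO library 2 exceeded cKO library 3 by a median of 1.24-fold, and WT library 1 exceeded WT library 3 by 1.17-fold. The spread among libraries was thus present in both genotypes and larger in cKO, a difference that was not tested.

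**Figure D2:**
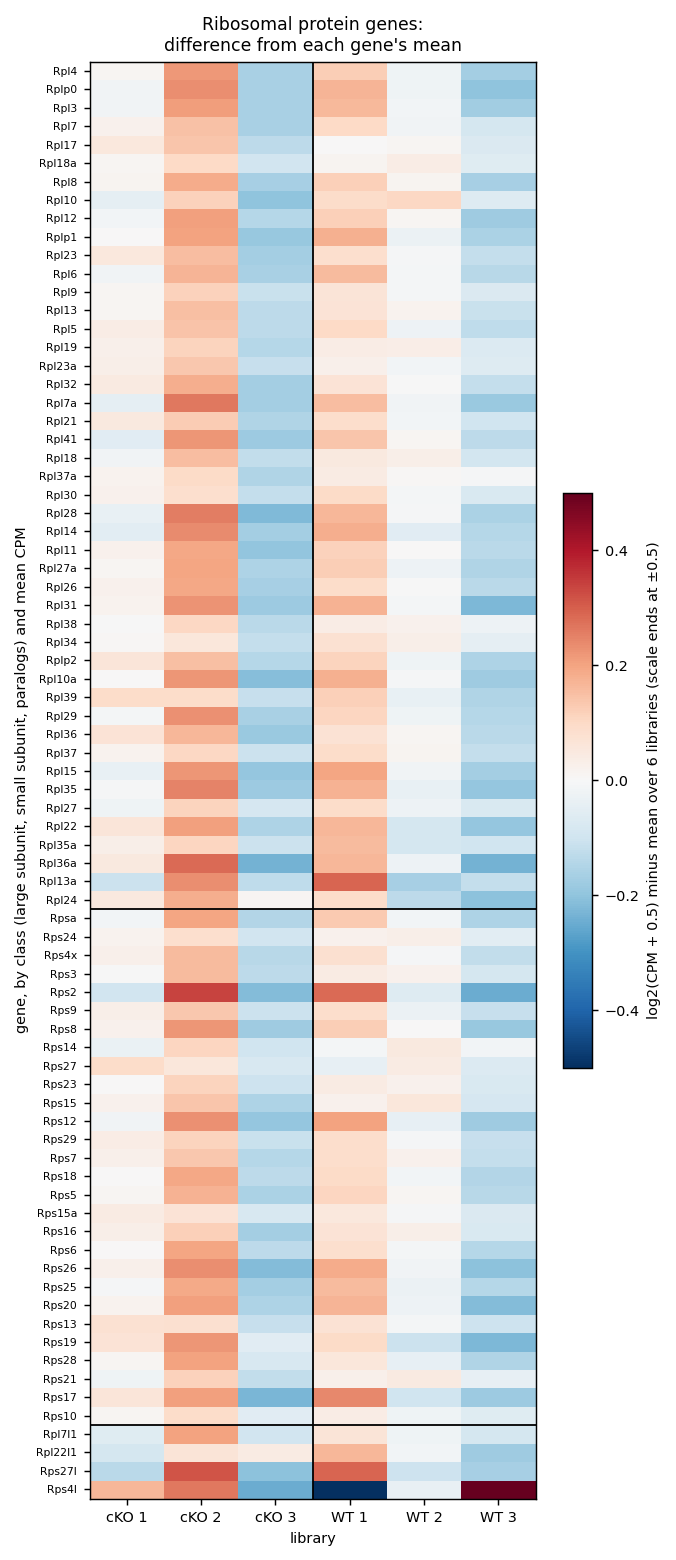
Distance of 78 of the 79 genes from its own mean over 6 libraries (log2(CPM + 0.5), red above and blue below, colours end at 0.5 in either direction), with cKO libraries on the left and WT on the right, and large subunit, small subunit and paralogs from top to bottom. The columns cKO 2 and WT 1 are red and cKO 3 and WT 3 are blue over nearly all rows. Rps4l in the bottom row is the clearest exception, in its WT columns.

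The genes moved together across libraries. A first principal component held 92.9% of the variation of the 75 core genes over the 6 libraries, and 2.72% of their summed variation lay between the genotype means, beside 12.8% over all genes tested. For 63 of the 79 genes the correlation with the median of the other core genes was above 0.9 over the 6 libraries, which share their depth and scaling. The lowest values were -0.20 for Rps4l, 0.58 for Rpl22l1, 0.60 for Rps27, 0.75 for Rps14 and 0.75 for Rpl24. The range over the 6 libraries was smallest for Rps15a, at 0.15 on the log2 scale. It was largest for Rps4l, at 1.21, and among core genes for Rps2, at 0.58.

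Rps2 shows the pattern in full. It encodes a protein at the entry of the mRNA channel, and was at 512, 693 and 471 CPM in cKO libraries 1, 2 and 3, against 667, 524 and 462 CPM in WT libraries 1, 2 and 3. cKO library 2 and WT library 1 stood together above the remaining 4 libraries. Its log2 fold change between the genotypes was 0.017, with an interval of -0.42 to 0.45.

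The excess of positive fold changes depended on which libraries were in the fit. With all 6 libraries 63 of 79 genes lay above 0. Without cKO library 2 this count was 6, with a median of -0.058, and without WT library 3 it was 8, with a median of -0.036. Without cKO library 3 it was 77, with a median of 0.099, and without WT library 1 it was 71, with a median of 0.079. Leaving out cKO library 1 gave 63 and leaving out WT library 2 gave 56. With cKO library 2 and WT library 1 both left out, an alternative chosen after the data were seen, 38 of 79 lay above 0 and the median was -0.0014. The number past an adjusted p of 0.05 was 0 in each of these fits. Rps19 reached an unadjusted p of 0.038 without WT library 1 and was the only member under 0.05 in any of them.

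**Figure D3:**
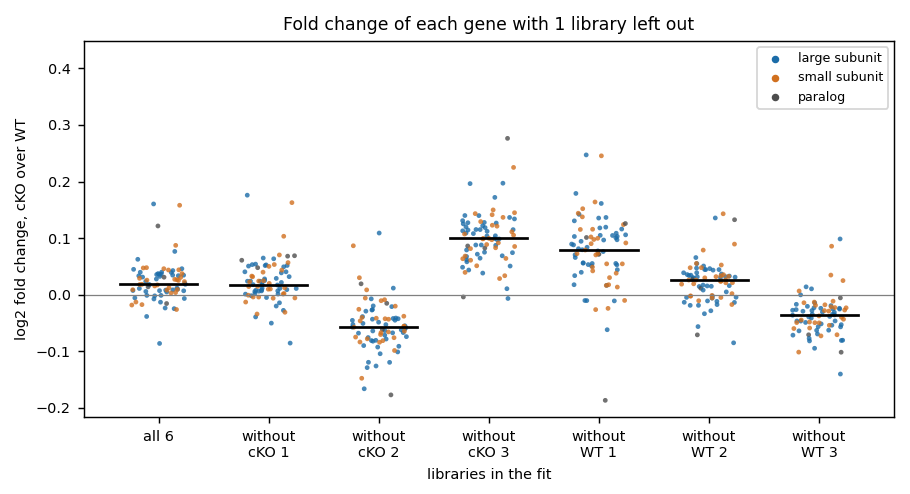
Log2 fold change (cKO over WT) of each of the 79 genes with all 6 libraries and with each library left out in turn; points are genes coloured by class and the black line is their median. The cloud falls below 0 without cKO 2 or WT 3 (medians -0.058 and -0.036) and rises above it without cKO 3 or WT 1 (medians 0.099 and 0.079).

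Other lists were set beside the ribosomal proteins to see which of them followed the same libraries. For the 22 mRNAs listed as those of translation factors and other TOP genes, no tract was counted here. They stood in that order of libraries in 19 cases. Their median distances were -0.0060, 0.16 and -0.14 in cKO libraries 1, 2 and 3, against 0.14, -0.031 and -0.095 in WT libraries 1, 2 and 3. For example Eef1g, a subunit of elongation factor 1, was at 346, 430.1 and 317 CPM in cKO, against 412, 331 and 306 CPM in WT. Eif4a2, which had the smallest p of the list, did not stand in that order. It was at 296, 279 and 315 CPM in cKO, against 292, 281 and 301 CPM in WT, so cKO library 2 was its lowest. Of the 22, 11 lay above 0 between the genotypes and 11 below, with a median of 0.0029, and 0 passed the test.

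The 77 mitochondrial ribosomal protein genes, which build the separate ribosome of the mitochondrion, stood in the order in 31 cases. Their median distances were -0.028, 0.15 and -0.12 in cKO, against 0.14, -0.054 and -0.098 in WT, with 46 above 0, 31 below and a median fold change of 0.011. The 16 regulators of TOP mRNA translation, among them Larp4 and Tsc1, stood in the order in 2 cases. Their median distances stayed between -0.040 and 0.050, with 8 above 0, 8 below and 0 past the test.

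**Figure D4:**
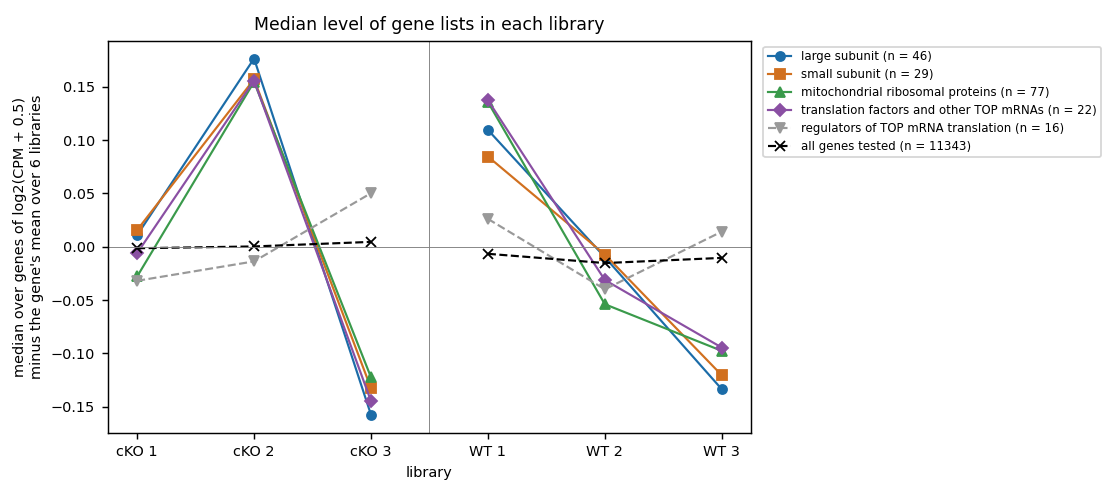
Median, over the genes of each list, of the distance from a gene's own mean over 6 libraries (log2(CPM + 0.5)), by library, cKO on the left and WT on the right. Large-subunit, small-subunit, mitochondrial ribosomal protein and TOP lists share a peak at cKO 2 and WT 1 and a trough at cKO 3 and WT 3, while the regulators and all genes tested lie near 0.

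Rack1 and Fau, outside the symbol rule, were read in the same way. Rack1, the scaffold on the head of the small subunit, was at 624, 709 and 562 CPM in cKO libraries 1, 2 and 3, against 659.7, 606 and 549.6 CPM in WT libraries 1, 2 and 3. Fau, which makes a ubiquitin-like protein fused to a small-subunit protein, was at 336, 338 and 307 CPM in cKO, against 319, 345 and 328 CPM in WT. The groups overlapped for both genes.

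Markers of other cells were read across the same libraries. Of 9 erythroid markers 8 were in the table and 6 were tested, and none of the 8 was at 0. Their sum was 192, 401 and 153 CPM in cKO libraries 1, 2 and 3, against 427, 144 and 128 CPM in WT libraries 1, 2 and 3. The carbonic anhydrase gene Car1 made up most of it, at 167, 353 and 134 CPM in cKO, against 353, 126 and 109 CPM in WT. The list was thus high in cKO library 2 and WT library 1, as the ribosomal proteins were, and its part in their pattern was not tested.

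The 18 B cell markers, all present, had another order. Their sum was 2827, 1315 and 2930 CPM in cKO libraries 1, 2 and 3, against 1583, 1814 and 1024 CPM in WT libraries 1, 2 and 3, so cKO library 2 was the lowest of its group. All 18 had a fold change above 0 (median 1.06 on the log2 scale), with 0 past the adjusted test, and the groups overlapped for each. Monocyte and macrophage markers summed to 237 to 458 CPM in cKO, against 196 to 267 CPM in WT, and T cell markers to 247 to 318 CPM in cKO, against 263 to 343 CPM in WT. Neutrophil markers summed to 122 to 167 CPM in cKO, against 108 to 137 CPM in WT. Of the 13 markers of monocytes and macrophages 7 were in the table, and no listed marker of these 3 cell types was at 0 in any library. All 7 monocyte and macrophage markers tested had a fold change above 0 (median 0.63 on the log2 scale). So did 8 of 9 neutrophil and 6 of 11 T cell markers tested, beside 55.5% of all genes. Every cKO library was above every WT library for the macrophage-list gene Axl and the neutrophil-list gene Camp, beside 2.55% of all genes tested. None of these markers passed the adjusted test. In each of these lists 0 genes stood in the full order of the ribosomal proteins. Of the 9 neutrophil markers tested, 3 were highest of all 6 libraries in cKO library 2, beside 17.3% of all genes tested. Of the B cell, T cell, monocyte and macrophage markers, 0 were. In Mpo and Elane, but not in Camp, WT library 1 came next. Mpo was at 11.6, 25.5 and 8.29 CPM in cKO, against 20.1, 6.89 and 11.1 CPM in WT. The part of these genes in the pattern was not tested. The share of reads on Gm26917, which overlaps a ribosomal RNA repeat, was 5.52%, 6.03% and 5.41% in cKO, against 5.86%, 5.16% and 4.65% in WT. It too was highest in cKO library 2 and WT library 1, and its part in the pattern was not tested.

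To look past the shared movement, each gene was also given as a share of the reads of all 79 genes in its library. On this scale 4 genes had all cKO libraries above all WT libraries, beside 0.943% of all genes tested, and 1 had all below, beside 0.917%. Dividing by the sum of the 79 genes puts their shared variation into every other gene, so the background was measured on unlike genes and nothing is read from the counts. Rps19 made up 0.883%, 0.881% and 0.902% of these reads in cKO libraries 1, 2 and 3, against 0.845%, 0.786% and 0.789% in WT libraries 1, 2 and 3. Rpl10 made up 1.88%, 1.89% and 1.88% in cKO, against 1.94%, 2.10% and 2.03% in WT, and was the gene that lay lower. Rps28, Rps6 and Rpl24 were the others above. For Rps6 the gap was narrow, with 1.1039% in the lowest cKO library and 1.1036% in the highest WT library.

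Among the paralogs, Rpl22l1 came closest to its core gene in level. Rpl22l1 (chromosome 3, 28805436 to 28807424, plus strand) can replace Rpl22 in the ribosome, and Rpl22 holds its level down in mouse cells. It was at 36.2, 40.3 and 39.7 CPM in cKO libraries 1, 2 and 3, against 43.3, 38.2 and 34.0 CPM in WT libraries 1, 2 and 3. Per kilobase of the principal transcript, its level was 99.3%, 99.9% and 126% of that of Rpl22 in cKO, against 110.3%, 116% and 111% in WT. The percentages averaged 108 ± 15.4 in cKO and 113 ± 3.22 in WT (SD, n = 3 each), and cKO library 3 lay above all others. The ratio depends on the length used, since by the exon length listed in the table Rpl22l1 was at 19.4 and Rpl22 at 44.8 CPM per kilobase, as means over 6 libraries.

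Rps27l, which in human cells is induced by p53, was at 29.9, 41.0 and 28.5 CPM in cKO libraries 1, 2 and 3, against 40.3, 30.6 and 29.3 CPM in WT libraries 1, 2 and 3. cKO library 2 and WT library 1 stood apart as for the core genes, and the log2 fold change was -0.016 (-0.44 to 0.41). Per kilobase it reached 4.68% ± 0.87 of Rps27 in cKO and 4.89% ± 0.94 in WT (SD, n = 3 each). In a list of p53 and its target genes, 12 of 12 tested genes lay above 0, beside 55.5% of all genes tested. Of the 12, 6 had an unadjusted limma p under 0.05 (0.846% of all genes in that direction), with 0 past the adjusted test. The list was chosen with earlier results of these data known. It holds Trp53cor1, the gene of smallest p among all genes tested, so its counts describe the list and test nothing. Rps27l was no part of that list, and its interval covers a change of either sign.

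Rpl7l1, a factor of large-subunit assembly related to Rpl7, was at 67.1, 80.4 and 65.4 CPM in cKO libraries 1, 2 and 3, against 73.2, 68.8 and 65.7 CPM in WT libraries 1, 2 and 3. It reached 5.07% of Rpl7 per kilobase in cKO and 4.98% in WT. Rps4l, an annotated processed pseudogene related to Rps4x, was at 6.16, 6.64 and 4.50 CPM in cKO, against 3.21, 5.28 and 8.10 CPM in WT. WT library 1 held its lowest and WT library 3 its highest value, so within WT its order was the reverse of that of the core genes. Within cKO it stood in the order 2, 1, 3, as most core genes did. Per kilobase Rps4l reached 0.869% of Rps4x in cKO and 0.879% in WT. The ratio of paralog to core gene was compared for these 4 pairs, and exact permutation tests (two-sided) gave p = 0.6, 0.6, 0.6 and 0.8 for Rpl22l1, Rps27l, Rpl7l1 and Rps4l. Rpl3l, Rpl10l, Rpl36al and Rpl39l, whose symbols would match the rule, were not among the genes of the deposited table and so were not analysed here.

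Proteins of the ribosome are present in equal numbers apart from those of the stalk, whereas mRNA reads per transcript length ranged widely. Where annotated transcripts of a gene ranked equally, the longest was taken as the principal one. The transcript taken was 5179 bases long for Rps15a, 3706 for Rps20 and 2989 for Rpl18. Levels, medians and order per kilobase depend on this choice, and its part in the range was not tested. Per kilobase of the principal GENCODE transcript, the 75 core genes had a median of 464 CPM, with quartiles of 276 and 599.6. The median was 396 for the large subunit and 507 for the small subunit. Rps27 was the highest at 1395 CPM per kilobase, followed by Rps29 at 1087, Rplp1 at 949, Rps15 at 938 and Rpl32 at 830.4. Of the 74 pairs of neighbours in this order, 67 differed by less than the range of either gene over the 6 libraries. Rps27 stood above Rps29 by more than that range. The other 6 such steps lay below Rpl35, and the last 3 of them separated Rpl22 from Rpl13a, Rpl13a from Rps10, and Rps10 from Rpl24.

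At the low end stood Rpl24 at 4.27 CPM per kilobase, Rps10 at 12.1 and Rpl13a at 38.5. Rps10 was at 10.8, 11.5 and 10.3 CPM in cKO libraries 1, 2 and 3, against 11.0, 10.6 and 10.3 CPM in WT libraries 1, 2 and 3, and Rpl13a ranged from 36.5 to 47.0 CPM in cKO and from 35.5 to 48.9 CPM in WT. By the exon length listed in the table, which counts every annotated exon, the same 3 were lowest, at 2.81, 4.66 and 19.0 CPM per kilobase. The highest by that length were Rplp1 at 949, Rps15 at 744 and Rps29 at 612. The Spearman correlation between both scales was 0.84 over the 75 core genes, which share the same CPM.

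**Figure D5:**
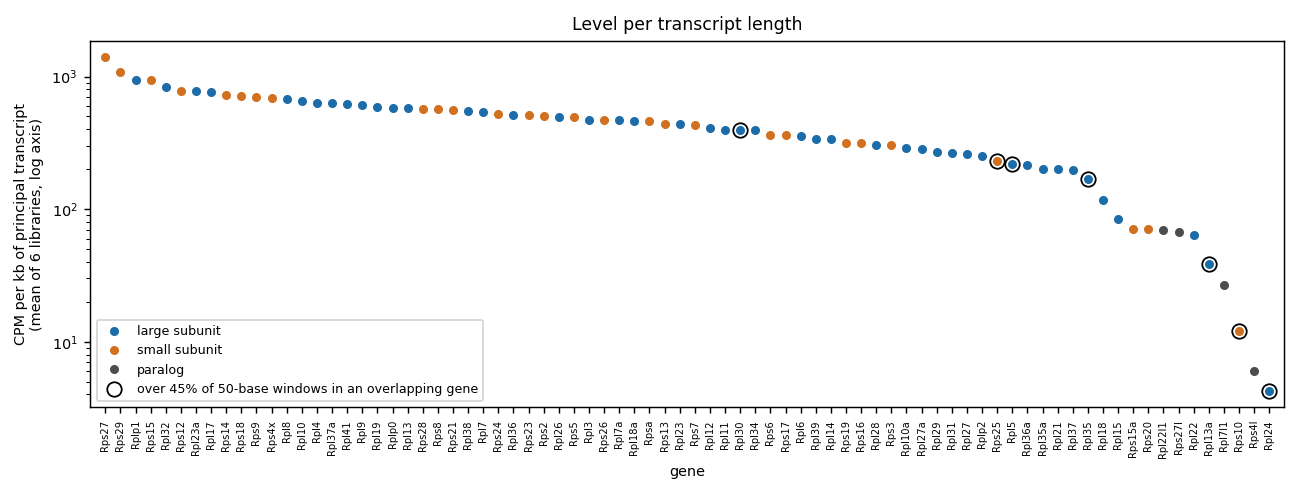
CPM per kilobase of the principal transcript (mean of 6 libraries, log axis) of 78 of the 79 genes from highest to lowest, coloured by class, with rings around core genes for which over 45% of 50-base windows also lie in an overlapping annotated gene. Most genes lie within a few-fold of 464. The 3 core genes at the bottom right, Rpl13a, Rps10 and Rpl24, all carry a ring, as do Rpl35, Rpl30, Rps25 and Rpl5 further up.

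Reads of 50 bases were used, so the transcripts were cut into windows of 50 bases and each was looked for in the transcripts of other genes. A median of 50.7% of a gene's windows also occurred in another gene, overlapping genes included, and a median of 43.2% in a gene that lies elsewhere. At least 1 window was shared with another gene of either kind in 78 of the 79 genes, and over 50% were in 40. Ribosomal protein genes have many processed pseudogenes, and a read from such a window cannot be assigned to a gene by sequence alone. For Rps27, the highest per kilobase, 98.6% of the windows were shared. Over the 75 core genes the Spearman correlation between level per kilobase and percentage of shared windows was 0.11. Both values are relative to the length of the same principal transcript, so they are not independent. The part of shared windows in the levels was not tested.

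Windows that lie in a gene overlapping at the same place were counted apart. For Rpl24, 69.4% of the windows lay in the overlapping gene Gm28037, for Rps10 55.8% in Gm15420 or RPS10-NUDT3 and for Rpl13a 57.4% in Gm45713. Among core genes 7 had over 45% of their windows in overlapping genes, namely these 3 and Rpl35, Rpl30, Rps25 and Rpl5. These 3 had the lowest levels of the core genes, while Rpl35, Rpl30, Rps25 and Rpl5 had higher ones. How the authors counted reads that fall in overlapping genes or map to several places is not given in the sources used here, and its part in these low levels was not tested. A fold change of these genes compares the reads that were kept, and its size does not depend on the length used.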

How the data were processed

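Per the labels' protocols, total RNA from RNeasy columns went through the KAPA Hyper Prep kit and was read as single ends of 50 bases. HISAT2, HTSeq and DESeq2, with no versions, and build mm10 are named in the submitters' processing notes. The sources used here give no settings of alignment, counting or strand, so reads of overlapping genes, antisense genes and near-identical copies cannot be told apart. The deposited values, named RPKM by the authors, are CPM: each column sums to 1000000 over the 11717 listed genes, whatever the gene length. In the deposited values 100% were whole multiples of 1 read within 0.01 reads, and these recovered reads, 26297292 to 29366756 per library, served the count tests. Exon lengths are another deposited column of the authors. Since genes were listed by a rule not given, these totals are not full sequencing depth, and CPM is relative, so a transcript that takes more reads lowers the others.

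Titles of the samples gave genotype and replicate number. The 11343 genes that reached 1 CPM in 3 or more of the 6 libraries entered a test on log2(CPM + 0.5), a scale that understates the change of low genes, with limma 3.58.1 (R 4.3.3, intensity trend, genotype as the single term) and Benjamini-Hochberg adjustment over all genes. edgeR 4.0.16 and DESeq2 1.42.0 on recovered reads, other pseudocounts, filters and scalings, a replicate block and the removal of libraries were alternatives. The tests were tried on simulated data first. Windows, coordinates and principal transcripts came from GENCODE M21 (79 of 79 genes matched by identifier and version), promoter sequences from RefSeq. The gene group, its symbol rule and the other lists were chosen with earlier results of these data known. Named were the paralogs with their core genes, the 5 highest and 3 lowest core genes per kilobase, the 5 of smallest p in each direction, the genes outside the symbol rule and, for some other lists, a gene of smallest p. Some genes that these rules name are not reported here. Rps2, Rpsa, Rps6, Rps14, Rps15a, Rpl5, Rpl11, Rpl32, the stalk genes and those of overlap were added for their role or after their values were seen.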

Additional observations from a re-analysis of the deposited data

How the results depend on the processing

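In each of 19 alternatives 0 of the ribosomal protein genes tested passed an adjusted p of 0.05. The median log2 fold change, 0.018 with all libraries, did not keep its sign. Leaving out 1 library moved it between -0.058 and 0.099, and it was -0.0014 without both cKO library 2 and WT library 1. A floor of a mean of 5 CPM removed Rpl24. Other scalings changed how many of the 79 lay above 0: 48 with median-ratio scaling (median 0.0063), 52 with TMM (0.0093), 67 with quantile normalization (0.031), 67 without the 2 genes on ribosomal RNA repeats (0.025), 50 in edgeR (0.0091) and 49 in DESeq2 (0.0085). The sign of Rps19, Rps27, Rps28, Rpl24 and Rpl10 held in every alternative that tested them, but their sizes did not. Rps28 was at 0.0084 without cKO library 2, against 0.087 with all, and Rpl10 at -0.0068 without cKO library 3, against -0.086. Rpl24 was at 0.016 under quantile normalization, against 0.16, and Rps27 at 0.012 without cKO library 1, against 0.047. Rps19 lay between 0.086 without WT library 3 and 0.25 without WT library 1. Rpl7 changed sign in 9 alternatives, Rplp1 in 8 and Rps15 in 8. With the replicate number as a block the median was 0.018 and 0 genes were called. Libraries of the same number deviated together for number 3 alone: their correlations over all genes were -0.17, -0.51 and 0.48 for numbers 1, 2 and 3. The numbers thus do not pair the samples throughout. The correlation was highest between cKO library 1 and WT library 2 (0.65), cKO library 2 and WT library 1 (0.59), and cKO library 3 and WT library 3 (0.48). The labels give no such pairing, so none was fitted, and its cause was not tested. Every pair of libraries differed by more than sampling noise, the closest with a chi-square of 4.78 per degree of freedom. With 3 libraries a group, the median distance from an estimate to the end of its unadjusted interval was 0.23 (log2). Smaller changes of a single gene were not resolved without a pairing. This distance is no limit of detection for the adjusted test, which is stricter. Over all genes tested, Trp53cor1 had a log2 fold change of 1.77 and a limma adjusted p of 0.15.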
